A study of Mus musculus with 11 samples.

Results

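The genes examined here are 39 genes of mitochondrial fatty acid oxidation and the tricarboxylic acid (TCA) cycle, taken by name from a table of 34866 mouse genes. They comprise 21 genes of fatty acid activation and beta-oxidation, 14 genes of pyruvate entry and the TCA cycle, and 4 transcriptional regulators. The list was set by gene name, with no threshold on measured values, but it was chosen with earlier results of these data known. All 39 passed the filter on low counts that left 14889 genes for testing, and all 39 are accounted for below. Acot2, a mitochondrial thioesterase, is counted with beta-oxidation, and the pyruvate dehydrogenase subunits Pdha1 and Pdhb are counted with the TCA cycle.

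The samples were bulk RNA sequencing libraries of mucosa from the gastric corpus, the acid-secreting body of the mouse stomach. Of the 11 libraries, 2 came from wild-type control mucosa, and 3 each from the engineered genotypes ATP4B-DTR and GIF-DTR and the combined genotype GIF/ATP4B-DTR. Where a sentence gives values for the 3 lines, the order is ATP4B-DTR first, then GIF-DTR, then GIF/ATP4B-DTR. The lines were built for ablation of parietal cells, chief cells or both. Atp4b, the gene in the name of the first, encodes a subunit of the parietal cell proton pump, and Gif encodes intrinsic factor, a product of mouse chief cells. DTR stands for the diphtheria toxin receptor, which makes mouse cells sensitive to the toxin. The labels give no promoter construct, strain, age, sex, toxin dose, time after toxin or batch. They also do not say that each sample came from a separate animal, so p-values measure the spread between these samples, which may be technical. The samples of ATP4B-DTR differ in Y-linked expression, given below, so they did not all come from the same animal.

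Fatty acids enter mitochondria as acyl-carnitines and are shortened in repeated rounds of beta-oxidation, which yield acetyl-CoA and reduced electron carriers. The TCA cycle oxidises the acetyl group further, and both pathways feed the respiratory chain. Parietal cells are among the cells richest in mitochondria, since the proton pump consumes large amounts of ATP. The estrogen-related receptors Esrra, Esrrb and Esrrg (ERRs) are orphan nuclear receptors that bind the promoters of many of these enzyme genes, and Ppargc1a (PGC-1alpha) is a coactivator that works through them.

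The libraries held 20.7 to 27.9 M counts each (M, mega), and 3 counts corresponded to between 0.107 and 0.166 CPM. CPM here means counts per M counts after trimmed mean of M-values (TMM) scaling. Every member had at least 5 counts in every sample. The parietal cell list (12 markers) summed to between 20746 and 22933 CPM in the controls, 7521 to 8662 in ATP4B-DTR, 11269 to 13482 in GIF-DTR and 5272 to 5931 in GIF/ATP4B-DTR. The chief cell list (7 markers) summed to 86472 and 193312 CPM in controls 1 and 2 and to between 2836 and 62164 CPM in the 9 samples of the lines. The 7 proliferation markers, all called higher in each line, summed to 221 and 305 CPM in the controls and to between 498 and 817 in the lines, and their part in the results was not tested. Atp4b was below control in ATP4B-DTR and GIF/ATP4B-DTR (log2 fold changes of −2.93 ± 0.38 and −3.98 ± 0.40, SE) and Gif was below control in GIF-DTR and GIF/ATP4B-DTR (−3.36 ± 0.73 and −3.59 ± 0.73). Atp4a, the other subunit of the pump, was below control in all 3 lines, GIF-DTR included (−1.13 ± 0.32, edgeR quasi-likelihood adjusted p = 0.0338). The Y-linked genes Ddx3y, Eif2s3y, Kdm5d and Uty had 23.5 CPM or more in both controls, ATP4B-DTR 1 and all 3 GIF/ATP4B-DTR samples. In ATP4B-DTR 2 and 3 and all 3 GIF-DTR samples, Ddx3y and Eif2s3y did not exceed 0.0794 CPM. Kdm5d and Uty lay between 0.621 and 3.31 CPM there. GIF-DTR and control therefore differ completely in this respect, and their genotype and their Y-linked expression cannot be told apart. In bulk tissue, fewer cells of a type and less RNA per cell cannot be told apart either.

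Against control, most of the members that passed the test were lower. Of the 21 beta-oxidation genes, 6, 8 and 10 were called lower in the 3 lines and 1, 0 and 1 higher, and of the 14 pyruvate and TCA genes, 2, 3 and 4 were called lower and 0 higher. In ATP4B-DTR, 12 of 39 members (30.8%) were called at a Benjamini-Hochberg adjusted p under 0.05 (edgeR quasi-likelihood test), 3 higher and 9 lower, where 21.6% of all genes tested were called. In GIF-DTR, 14 members (35.9%) were called, 1 higher and 13 lower, where 16.8% of all genes were called. In GIF/ATP4B-DTR, 18 members (46.2%) were called, 2 higher and 16 lower, where 33.6% of all genes were called. Counting decreases alone, 23.1%, 33.3% and 41% of the members were called lower in the 3 lines, beside 9.39%, 6.82% and 15.4% of all genes, while 7.69%, 2.56% and 5.13% were called higher, beside 12.2%, 9.97% and 18.2%. The samples of line and control did not overlap for 26 of 39 members (66.7%) in each line, beside 48.5%, 48% and 56.3% of all genes. The 3 comparisons share their 2 controls, so the agreement between them is not independent. Acsl1, Cpt1a, Acadl, Acadm, Acat1, Idh2, Ogdh and Esrrb (8 genes) were called lower in all 3 lines, Ppargc1a alone was called higher in all 3, and 0 members were called in opposite directions. The share of all genes called in all 3 lines is not given here, so whether these counts exceed it is not known.

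These counts rested in part on the controls and on the scaling. Control 1 exceeded control 2 in 35 of 39 members, and the controls also differed in the summed markers of smooth muscle (359 and 2135 CPM in controls 1 and 2), fibroblasts (49.3 and 500.1) and endothelium (5.48 and 55.4), whose part in the members' levels was not tested. Pit cell markers summed to 121304 and 76913 CPM in controls 1 and 2. GIF-DTR 1 stood above GIF-DTR 2 and 3 in smooth muscle (2516, 670 and 427 CPM) and fibroblast markers (730, 217 and 319). The part of these was not tested either. In GIF-DTR, 3 members were called without control 1 (where 7.31% of all genes were called), 9 without control 2 (5.63%), 8 without GIF-DTR 2 (10.9%) and 6 without GIF-DTR 3 (7.34%). Without control 1, 8 were called in ATP4B-DTR, where 13.8% of all genes were, and 10 in GIF/ATP4B-DTR, where 28.3% were. With Y-linked expression as a covariate, 7, 2 and 18 members were called in the 3 lines, beside 13.2%, 3.22% and 32.1% of all genes. The calls lost with it were those of Acadl, Acat1, Etfb, Ppargc1a and Esrra in ATP4B-DTR (edgeR adjusted p from 0.0547 to 0.148) and all but those of Acsl1 and Cpt1a in GIF-DTR (0.0651 to 0.464). When libraries were scaled by their totals in place of TMM, the median of all genes rose to log2 fold changes of 0.30, 0.35 and 0.28. The calls then became 8 higher and 6 lower in ATP4B-DTR, where 25.7% of all genes were called higher and 3.96% lower. They became 5 higher and 2 lower in GIF-DTR (25.9% and 2.02% of all genes) and 6 higher and 8 lower in GIF/ATP4B-DTR (31.0% and 7.68%). The calls lost under library totals were those of Acadl, Acat1 and Ogdh in ATP4B-DTR, all but Acsl1, Cpt1a and Ppargc1a in GIF-DTR, and Acadvl, Acadl, Hadh, Etfa, Acot2, Cs, Idh3g and Ogdh in GIF/ATP4B-DTR. The calls gained under library totals were all higher. They were Eci2, Pdhb, Idh3a, Suclg1 and Fh1 in ATP4B-DTR, Etfb, Pdhb, Fh1 and Esrra in GIF-DTR, and Pdhb, Idh3a, Fh1 and Esrra in GIF/ATP4B-DTR. Fold changes below are relative to the TMM scaling, under which the median gene differed from control by −0.015, −0.0083 and −0.038. 

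**Figure D1:**
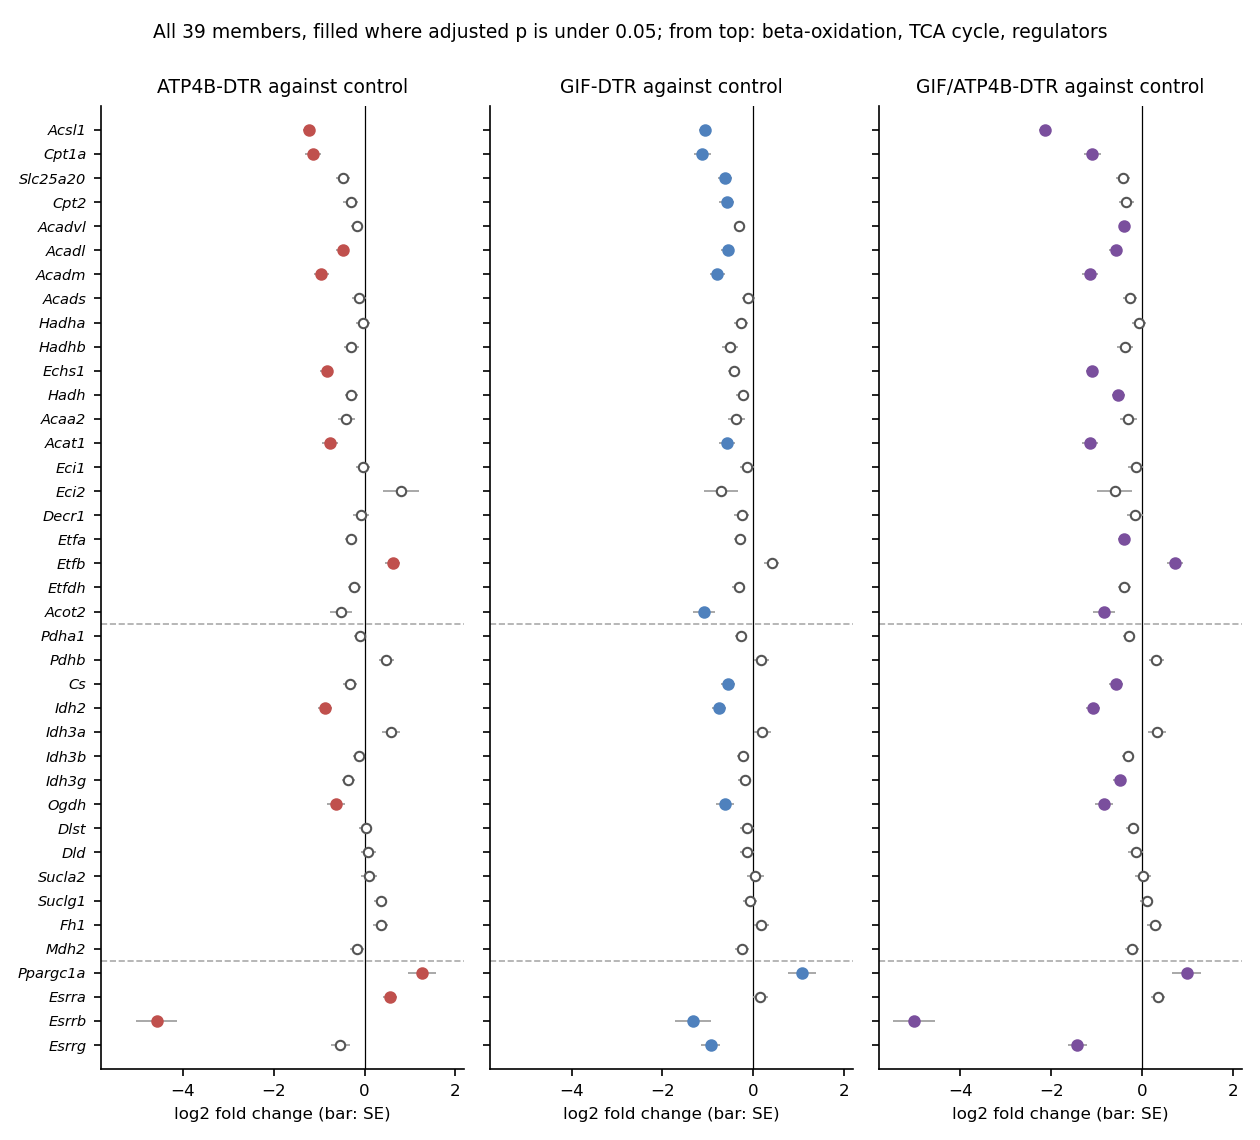
Log2 fold change against control (x axis, edgeR fit, bars are SE) of the 39 members (y axis) in each of the 3 lines, with filled points where the adjusted p is under 0.05 and dashed lines between beta-oxidation, TCA and regulator genes. Acsl1, Cpt1a, Acadm and Idh2 lie on the lower side in all 3 lines, the TCA genes lie on both sides of 0 in each line, and Esrrb and Ppargc1a lie on opposite sides.

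The genes that bring fatty acids into the mitochondrion had the lowest median of any enzyme group with more than 1 gene. The median log2 fold change of Acsl1, Cpt1a, Slc25a20 and Cpt2 was −0.80, −0.84 and −0.75 in the 3 lines, and 2, 4 and 2 of the 4 were called lower, where 9.39%, 6.82% and 15.4% of all genes were. Acsl1, a long-chain acyl-CoA synthetase that activates fatty acids for oxidation, stood at 169.8 and 176 CPM in controls 1 and 2, 68.2, 66.8 and 86.5 in ATP4B-DTR 1 to 3, 82.97, 77.6 and 88.4 in GIF-DTR 1 to 3, and 41.4, 41.3 and 35.5 in GIF/ATP4B-DTR 1 to 3. Both controls lay above all 9 samples of the lines, and GIF/ATP4B-DTR lay below the other 2 lines without overlap. Acsl1 fell in every line, with log2 fold changes of −1.23 ± 0.14, −1.06 ± 0.14 and −2.13 ± 0.14 in the 3 lines (edgeR adjusted p = 0.000336, 0.00153 and 8.72e-06).

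Cpt1a, the outer-membrane carnitine palmitoyltransferase and the regulated gate of the pathway, had 345 and 275 CPM in controls 1 and 2, 121, 151 and 153 in ATP4B-DTR 1 to 3, 126, 162 and 140.3 in GIF-DTR 1 to 3, and 162, 116 and 158 in GIF/ATP4B-DTR 1 to 3. The control range did not overlap that of any line, and the ranges of the 3 lines overlapped one another. Cpt1a fell in all 3 lines, with log2 fold changes of −1.13 ± 0.18, −1.12 ± 0.18 and −1.09 ± 0.18 (edgeR adjusted p = 0.00204, 0.00344 and 0.00113). Its mean was 310.2 ± 49.7 CPM (SD, n = 2) in control and 142 ± 17.5, 143 ± 17.9 and 145 ± 25.9 CPM (SD, n = 3 each) in the 3 lines. The calls for Acsl1 and Cpt1a against control held under every alternative run, leaving out any 1 sample included.

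Slc25a20 and Cpt2 had smaller log2 fold changes than Acsl1 and Cpt1a in each line, a difference that was not tested. Slc25a20, the carnitine-acylcarnitine carrier of the inner membrane, had 51.4 and 39.1 CPM in controls 1 and 2, 31.5, 36.1 and 30.9 in ATP4B-DTR 1 to 3, 28.1, 33.04 and 26.8 in GIF-DTR 1 to 3, and 36.2, 30.7 and 35.2 in GIF/ATP4B-DTR 1 to 3. Control 2 lay close above the highest samples of the lines. Slc25a20 was called lower in GIF-DTR only, with log2 fold changes of −0.46 ± 0.15, −0.63 ± 0.15 and −0.41 ± 0.15 (edgeR adjusted p = 0.0511, 0.0191 and 0.0586), a call lost without control 1 or GIF-DTR 3 (−0.57 to −0.41, adjusted p from 0.0602 to 0.178). Cpt2, which returns the acyl group to CoA inside the matrix, had 126 and 91.1 CPM in controls 1 and 2, 75.8, 99.2 and 88.7 in ATP4B-DTR 1 to 3, 64.5, 78.4 and 74.4 in GIF-DTR 1 to 3, and 86.5, 76.99 and 91.6 in GIF/ATP4B-DTR 1 to 3. Control 2 overlapped ATP4B-DTR and GIF/ATP4B-DTR in this gene. Its log2 fold changes were −0.30 ± 0.17, −0.58 ± 0.17 and −0.35 ± 0.17 (edgeR adjusted p = 0.223, 0.0353 and 0.125), so only GIF-DTR passed the test, and it did not without control 1, GIF-DTR 1, GIF-DTR 2 or GIF-DTR 3 (−0.64 to −0.33, adjusted p from 0.0543 to 0.299). These calls in 1 line and not in another do not show a difference between lines: Slc25a20 and Cpt2 were called in none of the comparisons of line with line.

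**Figure D2:**
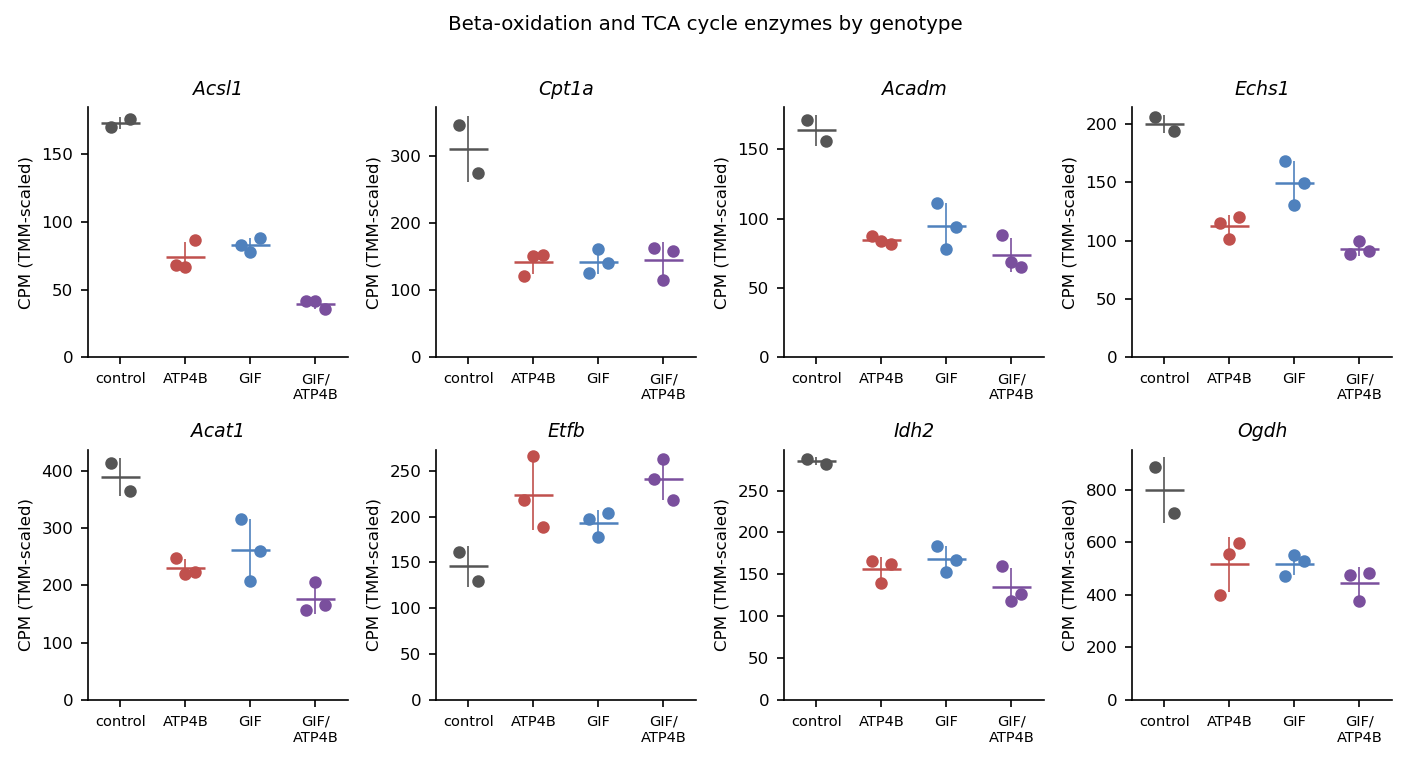
TMM-scaled CPM (y axis) of Acsl1, Cpt1a, Acadm, Echs1, Acat1, Etfb, Idh2 and Ogdh in the 11 samples by genotype (x axis), with each point a sample, lines the group mean and bars the SD. Both controls lie above all samples of the lines for every gene but Etfb, for which both controls lie below.

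The acyl-CoA dehydrogenases take the first oxidation step on chains of different length, and 2, 2 and 3 of the 4 were called lower in the 3 lines, beside 9.39%, 6.82% and 15.4% of all genes. Acadm, the medium-chain enzyme, had 171 and 156 CPM in controls 1 and 2, 87.7, 83.7 and 81.97 in ATP4B-DTR 1 to 3, 111, 77.8 and 93.95 in GIF-DTR 1 to 3, and 87.9, 68.9 and 64.8 in GIF/ATP4B-DTR 1 to 3. Both controls were above every other sample by a wide margin. Acadm fell with log2 fold changes of −0.95 ± 0.17, −0.79 ± 0.17 and −1.15 ± 0.17 (edgeR adjusted p = 0.00292, 0.0104 and 0.000509), and the call in GIF-DTR was lost without control 1 (−0.72, adjusted p = 0.0625). Acadl, the long-chain enzyme, had 306 and 251 CPM in controls 1 and 2, 189, 214 and 194 in ATP4B-DTR 1 to 3, 178, 199 and 188 in GIF-DTR 1 to 3, and 209, 168 and 182 in GIF/ATP4B-DTR 1 to 3. All 9 samples of the lines lay below both controls. Acadl was called lower in each line with smaller log2 fold changes of −0.48 ± 0.14, −0.56 ± 0.14 and −0.58 ± 0.14 (edgeR adjusted p = 0.0312, 0.0211 and 0.00881). The Acadl calls were lost in ATP4B-DTR without control 1, ATP4B-DTR 1 or ATP4B-DTR 3 (−0.46 to −0.33, adjusted p from 0.0664 to 0.2), in GIF-DTR without control 1, GIF-DTR 1 or GIF-DTR 3 (−0.56 to −0.41, adjusted p from 0.0545 to 0.153) and in GIF/ATP4B-DTR without control 1 (−0.42, adjusted p = 0.0769).

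Acadvl, the very-long-chain enzyme, had 171 and 159 CPM in controls 1 and 2, 148, 142 and 149.6 in ATP4B-DTR 1 to 3, 141, 119 and 139 in GIF-DTR 1 to 3, and 124, 130.2 and 123 in GIF/ATP4B-DTR 1 to 3. Its controls were the highest samples, and the gap to the lines was small. Acadvl was called lower in GIF/ATP4B-DTR (−0.40 ± 0.12, edgeR adjusted p = 0.0231) and not in ATP4B-DTR or GIF-DTR (−0.17 ± 0.12 and −0.31 ± 0.12, adjusted p = 0.329 and 0.0927), and the call was lost without control 1, control 2, GIF/ATP4B-DTR 1 or GIF/ATP4B-DTR 3 (−0.45 to −0.34, adjusted p from 0.0528 to 0.108). Acads, the short-chain enzyme, was called in none of the 3 lines and had log2 fold changes of −0.12 ± 0.15, −0.11 ± 0.15 and −0.27 ± 0.15. The 4 dehydrogenases had medians of −0.33, −0.44 and −0.49 in the 3 lines.

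Of the 6 genes of the hydration, second oxidation and thiolysis steps, 2, 1 and 3 were called lower in the 3 lines, beside 9.39%, 6.82% and 15.4% of all genes, and the 1 in GIF-DTR was Acat1, a call at the threshold. Echs1, the short-chain enoyl-CoA hydratase, had 206 and 194 CPM in controls 1 and 2, 115, 102 and 121 in ATP4B-DTR 1 to 3, 169, 130.4 and 149 in GIF-DTR 1 to 3, and 88.3, 100.2 and 91.3 in GIF/ATP4B-DTR 1 to 3. The controls were highest, GIF-DTR intermediate, and ATP4B-DTR and GIF/ATP4B-DTR lowest, with ATP4B-DTR 2 close to GIF/ATP4B-DTR 2. Echs1 fell in the ATP4B-DTR and the GIF/ATP4B-DTR line, with log2 fold changes of −0.83 ± 0.14, −0.42 ± 0.14 and −1.10 ± 0.14 in the 3 lines (edgeR adjusted p = 0.00222, 0.0577 and 0.000218). Acat1, the mitochondrial acetoacetyl-CoA thiolase, had 413 and 366 CPM in controls 1 and 2, 249, 221 and 224 in ATP4B-DTR 1 to 3, 317, 208 and 259 in GIF-DTR 1 to 3, and 158, 205 and 166 in GIF/ATP4B-DTR 1 to 3. Both controls lay above all samples of the lines, and GIF/ATP4B-DTR lay below ATP4B-DTR and GIF-DTR. Acat1 was called lower in each line, with log2 fold changes of −0.75 ± 0.18, −0.58 ± 0.18 and −1.14 ± 0.18 (edgeR adjusted p = 0.0134, 0.04996 and 0.000798). The GIF-DTR call sat at the threshold and was lost without control 1, control 2, ATP4B-DTR 1, ATP4B-DTR 2, ATP4B-DTR 3, GIF-DTR 2, GIF-DTR 3, GIF/ATP4B-DTR 1 or GIF/ATP4B-DTR 3 (−0.66 to −0.44, adjusted p from 0.0528 to 0.213), and the ATP4B-DTR call was lost without control 1 (−0.66, adjusted p = 0.0733).

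Hadh, the short- and medium-chain hydroxyacyl-CoA dehydrogenase, had 226 and 208 CPM in controls 1 and 2, 190.2, 165 and 177 in ATP4B-DTR 1 to 3, 205, 163 and 186 in GIF-DTR 1 to 3, and 166, 149 and 138 in GIF/ATP4B-DTR 1 to 3. GIF-DTR 1 came close to control 2, and GIF/ATP4B-DTR 2 and 3 were the lowest. Hadh was called lower in GIF/ATP4B-DTR (−0.52 ± 0.14, edgeR adjusted p = 0.0131), a call lost without control 1 (−0.46, adjusted p = 0.0691), and not in ATP4B-DTR or GIF-DTR (−0.29 ± 0.14 and −0.23 ± 0.14, adjusted p = 0.162 and 0.284). Hadha and Hadhb, the subunits of the trifunctional protein for long chains, had log2 fold changes of −0.034 ± 0.16, −0.27 ± 0.16 and −0.072 ± 0.16 and of −0.29 ± 0.17, −0.51 ± 0.17 and −0.38 ± 0.17, none of them called. Acaa2, the 3-ketoacyl-CoA thiolase, was also not called, at −0.40 ± 0.19, −0.37 ± 0.19 and −0.30 ± 0.19.

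The electron transfer flavoprotein passes electrons from the acyl-CoA dehydrogenases to the respiratory chain, and its 2 subunits moved in opposite directions in GIF/ATP4B-DTR. Etfb, the beta subunit, had 161 and 130.2 CPM in controls 1 and 2, 218, 265 and 188 in ATP4B-DTR 1 to 3, 198, 178 and 204 in GIF-DTR 1 to 3, and 241, 263 and 218 in GIF/ATP4B-DTR 1 to 3. Both controls lay below all 9 samples of the lines. Counts of this gene were fractional in 8 samples. Etfb rose in the ATP4B-DTR and the GIF/ATP4B-DTR line, with log2 fold changes of 0.62 ± 0.17, 0.41 ± 0.17 and 0.72 ± 0.17 in the 3 lines (edgeR adjusted p = 0.0247, 0.125 and 0.00763). It was the single beta-oxidation member called higher, and the call was lost in ATP4B-DTR without control 2 or ATP4B-DTR 2 (0.47 to 0.48, adjusted p from 0.0758 to 0.181) and in GIF/ATP4B-DTR without control 2 (0.57, adjusted p = 0.0841). Etfa, the alpha subunit, had 295 and 248 CPM in controls 1 and 2, 227, 221 and 214 in ATP4B-DTR 1 to 3, 235, 208 and 225 in GIF-DTR 1 to 3, and 218, 203 and 197 in GIF/ATP4B-DTR 1 to 3. The controls were the highest samples. Etfa was called lower in GIF/ATP4B-DTR (−0.40 ± 0.13, edgeR adjusted p = 0.0293), a call lost without control 1, GIF/ATP4B-DTR 2 or GIF/ATP4B-DTR 3 (−0.39 to −0.27, adjusted p from 0.0644 to 0.193). Etfdh, the ubiquinone oxidoreductase that receives these electrons, was not called, with log2 fold changes of −0.22 ± 0.14, −0.32 ± 0.14 and −0.39 ± 0.14.

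Acot2, the thioesterase that releases free fatty acids in the matrix, had 9.21 and 9.54 CPM in controls 1 and 2, 6.47, 6.93 and 6.21 in ATP4B-DTR 1 to 3, 3.03, 5.07 and 5.16 in GIF-DTR 1 to 3, and 5.28, 5.60 and 4.92 in GIF/ATP4B-DTR 1 to 3. Both controls lay above all samples of the lines. Acot2 was called lower in GIF-DTR and GIF/ATP4B-DTR, with log2 fold changes of −0.52 ± 0.25, −1.08 ± 0.25 and −0.83 ± 0.25 in the 3 lines (edgeR adjusted p = 0.158, 0.0145 and 0.0221). Its counts were fractional in all 11 samples, as when reads are shared with another gene, and its level is uncertain. The calls were lost in GIF-DTR without control 1 or control 2 (−1.10 to −1.06, adjusted p from 0.0604 to 0.0733) and in GIF/ATP4B-DTR without control 1, control 2 or GIF/ATP4B-DTR 3 (−0.85 to −0.78, adjusted p from 0.0654 to 0.102). Eci1, Eci2 and Decr1, which prepare unsaturated chains for oxidation, were called in none of the 3 lines. Eci2 was the most variable of them, with 64.2, 101 and 30.2 CPM in ATP4B-DTR 1 to 3 beside 34.1 and 40.7 in the controls, and its counts were fractional in 7 samples.

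Summed over genes, activation and the carnitine shuttle stood at a smaller fraction of their control level than beta-oxidation as a whole or the TCA cycle. Relative to the control mean of summed CPM, Acsl1, Cpt1a, Slc25a20 and Cpt2 together stood at 46.6% to 56.3%, 47.4% to 55.1% and 41.6% to 51.3% in the 3 lines. All 21 beta-oxidation genes stood at 74.1% to 81.2%, 70.3% to 76.3% and 65.7% to 77.1%, and the 14 pyruvate and TCA genes at 88.3% to 92.1%, 75.8% to 88.0% and 76.9% to 82.1%. The parietal cell list stood at 34.4% to 39.7%, 51.6% to 61.7% and 24.1% to 27.2%. In GIF/ATP4B-DTR 1 to 3 its sum was 5419, 5931 and 5272 CPM, of which Car2 gave 3403, 2513 and 2747. Car2 stood at 2627 and 2015 CPM in controls 1 and 2. The parietal list separated the 3 lines without overlap, and the summed enzyme groups did not. The part of the parietal markers in these results was not tested.

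**Figure D3:**
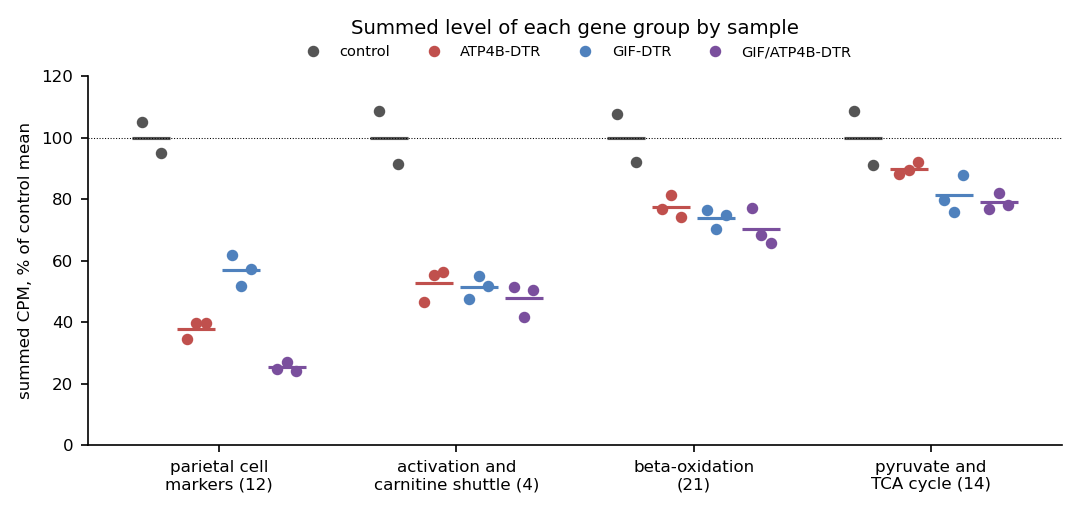
Summed TMM-scaled CPM of each sample as a percentage of the control mean (y axis) for the parietal cell markers (12), activation and carnitine shuttle genes (4), all beta-oxidation genes (21) and pyruvate and TCA genes (14), by genotype. GIF/ATP4B-DTR reaches 24.1% for the parietal markers, a sum in which Car2 holds 2747 of 5272 CPM, and no lower than 65.7% for the beta-oxidation sum.

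Under TMM scaling, all pyruvate and TCA genes that passed the test were lower than in control. They were Idh2 and Ogdh in every line, Cs in GIF-DTR and GIF/ATP4B-DTR, and Idh3g in GIF/ATP4B-DTR. The 14 genes' median log2 fold changes were −0.033, −0.16 and −0.21, beside −0.30, −0.42 and −0.40 for the 21 beta-oxidation genes and −0.015, −0.0083 and −0.038 for all genes. The TCA median in ATP4B-DTR was 0.11 without control 1 and −0.16 without control 2, so its sign was not fixed. The beta-oxidation medians were −0.17, −0.33 and −0.27 without control 1. The TCA medians in GIF-DTR and GIF/ATP4B-DTR were −0.034 and −0.036 without control 1. The difference between the 2 groups of genes was not tested.

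Idh2, the mitochondrial NADP-dependent isocitrate dehydrogenase, had 288 and 282 CPM in controls 1 and 2, 166, 139 and 163 in ATP4B-DTR 1 to 3, 184, 153 and 167 in GIF-DTR 1 to 3, and 160.2, 119 and 127 in GIF/ATP4B-DTR 1 to 3. Both controls lay far above all 9 samples of the lines. Idh2 fell in every line, with log2 fold changes of −0.87 ± 0.15, −0.76 ± 0.15 and −1.07 ± 0.15 (edgeR adjusted p = 0.00295, 0.00816 and 0.000444), and leaving out any 1 sample ended none of these calls. The GIF-DTR call was lost with the Y-linked covariate (−0.64, adjusted p = 0.202) and under library totals (−0.41, adjusted p = 0.0905), and the ATP4B-DTR call in the samples with Y-linked expression alone (−0.78, adjusted p = 0.121, edgeR). Ogdh, the E1 subunit of the 2-oxoglutarate dehydrogenase complex, had 888 and 711 CPM in controls 1 and 2, 399, 555 and 597 in ATP4B-DTR 1 to 3, 470.2, 550.4 and 529.5 in GIF-DTR 1 to 3, and 477, 376 and 483 in GIF/ATP4B-DTR 1 to 3. Again the controls were highest, while the lines overlapped one another. Ogdh was called lower in each line, with log2 fold changes of −0.63 ± 0.20, −0.63 ± 0.20 and −0.84 ± 0.19 (edgeR adjusted p = 0.0395, 0.0476 and 0.0066). The calls were lost in ATP4B-DTR without control 1, control 2, ATP4B-DTR 1, ATP4B-DTR 2, GIF-DTR 2 or GIF/ATP4B-DTR 3 (−0.78 to −0.46, adjusted p from 0.0534 to 0.209), in GIF-DTR without control 1, control 2, ATP4B-DTR 2, GIF-DTR 1, GIF-DTR 2, GIF-DTR 3, GIF/ATP4B-DTR 1 or GIF/ATP4B-DTR 3 (−0.78 to −0.46, adjusted p from 0.0553 to 0.257) and in GIF/ATP4B-DTR without control 1 (−0.67, adjusted p = 0.0523).

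Cs, citrate synthase, which condenses acetyl-CoA with oxaloacetate and opens the cycle, had 653 and 541 CPM in controls 1 and 2, 451, 468 and 516 in ATP4B-DTR 1 to 3, 384, 393 and 438 in GIF-DTR 1 to 3, and 359.8, 388 and 452 in GIF/ATP4B-DTR 1 to 3. All samples of the lines lay below the controls. Cs was called lower in GIF-DTR and GIF/ATP4B-DTR, with log2 fold changes of −0.32 ± 0.15, −0.56 ± 0.15 and −0.58 ± 0.15 in the 3 lines (edgeR adjusted p = 0.157, 0.0279 and 0.0125). The calls were lost in GIF-DTR without control 1, GIF-DTR 1, GIF-DTR 2 or GIF-DTR 3 (−0.63 to −0.42, adjusted p from 0.0506 to 0.174) and in GIF/ATP4B-DTR without control 1 (−0.43, adjusted p = 0.091). The NAD-dependent isocitrate dehydrogenase, a control point of the cycle, has the subunits Idh3a, Idh3b and Idh3g. Idh3a, the catalytic subunit, had 134 and 118 CPM in controls 1 and 2, 203, 164 and 197 in ATP4B-DTR 1 to 3, 139, 125 and 171 in GIF-DTR 1 to 3, and 124, 192 and 161 in GIF/ATP4B-DTR 1 to 3. ATP4B-DTR lay above both controls, and the other 2 lines overlapped or adjoined them. Idh3a was called in no line, with log2 fold changes of 0.58 ± 0.20, 0.20 ± 0.20 and 0.34 ± 0.20 (edgeR adjusted p = 0.0585, 0.53 and 0.208). Idh3g had 134 and 111 CPM in controls 1 and 2, 103, 90.3 and 93.2 in ATP4B-DTR 1 to 3, 113, 91.96 and 116 in GIF-DTR 1 to 3, and 88.8, 90.2 and 82.1 in GIF/ATP4B-DTR 1 to 3. The GIF/ATP4B-DTR samples were the lowest group. Idh3g was called lower in GIF/ATP4B-DTR (−0.49 ± 0.14, edgeR adjusted p = 0.018), and not without control 1 or GIF/ATP4B-DTR 3 (−0.45 to −0.35, adjusted p from 0.0603 to 0.139).

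The remaining pyruvate and TCA genes passed the test in none of the lines. They were Pdha1 and Pdhb of pyruvate dehydrogenase, the beta subunit Idh3b, Dlst and Dld, of which the last pair complete the 2-oxoglutarate dehydrogenase complex, the succinyl-CoA ligase subunits Sucla2 and Suclg1, fumarase Fh1 and malate dehydrogenase Mdh2. Their log2 fold changes against control ran from −0.32 (Idh3b in GIF/ATP4B-DTR) to 0.48 (Pdhb in ATP4B-DTR). Counts of Pdha1 were fractional in all 11 samples, as were those of Echs1, Etfdh and Acot2. Those of Slc25a20 and Acadvl were fractional in 10 samples, of Hadhb and Suclg1 in 9, of Etfb in 8 and of Eci2 and Pdhb in 7.

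Levels of different genes were compared as CPM per kilobase of the principal transcript. In control, Mdh2 had the highest mean level of the 39 members at 303 CPM per kb, followed by Cs at 204, Etfa at 195 and Ogdh at 194. Cs, Etfa and Ogdh overlapped between the 2 controls, so their order is not settled. In GIF/ATP4B-DTR, Etfb came first at 269 CPM per kb and Mdh2 next at 259.8, with overlapping samples, while Ogdh stood at 108. The lowest levels in control were those of Esrrb at 3.09, Ppargc1a at 3.85 and Acot2 at 4.27 CPM per kb.

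The 4 regulators did not move together: Ppargc1a and, in ATP4B-DTR, Esrra rose, while Esrrb and, in GIF-DTR and GIF/ATP4B-DTR, Esrrg fell. Esrrb (ENSMUSG00000021255.17, chromosome 12, 86361117 to 86521628, GRCm38), an ERR known for its role in pluripotent and placental cells, had 13.97 and 11.98 CPM in controls 1 and 2, 0.559, 0.351 and 0.704 in ATP4B-DTR 1 to 3, 7.38, 3.78 and 4.40 in GIF-DTR 1 to 3, and 0.202, 0.599 and 0.392 in GIF/ATP4B-DTR 1 to 3. The controls were highest, GIF-DTR was intermediate, and ATP4B-DTR and GIF/ATP4B-DTR lay under 1 CPM, so the 2 low lines overlapped and no other groups did. Esrrb fell with log2 fold changes of −4.58 ± 0.46, −1.32 ± 0.40 and −5.02 ± 0.47 (edgeR adjusted p = 0.000187, 0.0442 and 4.30e-05), the widest difference of any member. The fold changes of the 2 low lines rest on few counts, 5 at the lowest. The GIF-DTR call was lost without control 1, control 2, ATP4B-DTR 1, GIF-DTR 2, GIF-DTR 3 or GIF/ATP4B-DTR 3 (−1.43 to −1.14, adjusted p from 0.0564 to 0.176).

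The parietal cell list had the same order of group means as Esrrb, from control through GIF-DTR and ATP4B-DTR to GIF/ATP4B-DTR, with no overlap between groups in its sum, while Esrrb overlapped between the latter 2. That sum does not stand for each marker. Of the 12, 6, 4 and 8 were called lower in the 3 lines and 0 higher, beside 9.39%, 6.82% and 15.4% of all genes called lower. Car2 had means of 2321 CPM in control and 3456, 2306 and 2888 in the 3 lines. Cckbr and Aqp4 also had higher means in ATP4B-DTR than in control. The liver list was also low in the ATP4B-DTR and the GIF/ATP4B-DTR line, summing to between 1569 and 1870 CPM in control, 96.5 to 112 in ATP4B-DTR, 816 to 1941 in GIF-DTR and 76.4 to 91.8 in GIF/ATP4B-DTR, with GIF-DTR 1 above both controls. Most of that sum was Apoa1, an apolipoprotein, while Alb, the defining liver marker, lay between 1.08 and 17.1 CPM in all samples. The summed skeletal and heart muscle markers did not exceed 13.6 CPM, and the adipocyte markers lay between 10.7 and 40.6 CPM without separating the groups. The part of these markers in the results was not tested.

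Esrrg (ENSMUSG00000026610.13, chromosome 1, 187608791 to 188214885), an ERR abundant in highly oxidative tissues, had 454 and 417 CPM in controls 1 and 2, 268, 278 and 354 in ATP4B-DTR 1 to 3, 214, 214 and 255 in GIF-DTR 1 to 3, and 152, 211 and 124 in GIF/ATP4B-DTR 1 to 3. Both controls lay above all 9 samples, and GIF/ATP4B-DTR lay below the other lines. Esrrg was called lower in GIF-DTR and GIF/ATP4B-DTR, with log2 fold changes of −0.54 ± 0.21, −0.93 ± 0.21 and −1.42 ± 0.21 in the 3 lines (edgeR adjusted p = 0.0888, 0.0129 and 0.000515). The GIF-DTR call was lost without control 1 (−0.87, adjusted p = 0.0673). In ATP4B-DTR the decrease passed the threshold without GIF/ATP4B-DTR 2 (adjusted p = 0.0382) and with the DESeq2 Wald test (adjusted p = 0.0475). The GIF/ATP4B-DTR call held in every alternative run.

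Esrra (ENSMUSG00000024955.13, chromosome 19, 6910977 to 6921813), the most widely expressed ERR, had 115 and 78.4 CPM in controls 1 and 2, 136, 161 and 130.5 in ATP4B-DTR 1 to 3, 101, 112 and 109 in GIF-DTR 1 to 3, and 121, 123 and 126 in GIF/ATP4B-DTR 1 to 3. Control 1 lay above the GIF-DTR samples and control 2 below them. The ATP4B-DTR and GIF/ATP4B-DTR samples lay above both controls. With library totals in place of TMM, Esrra was called higher in all 3 lines (0.87, 0.53 and 0.68, edgeR adjusted p = 0.00135, 0.0195 and 0.00336). Under that scaling 25.7%, 25.9% and 31% of all genes were called higher. Under TMM scaling Esrra was called higher in ATP4B-DTR only, with log2 fold changes of 0.56 ± 0.16, 0.15 ± 0.16 and 0.35 ± 0.16 (edgeR adjusted p = 0.0305, 0.563 and 0.115). The call was lost without control 2 or ATP4B-DTR 2 (0.31 to 0.46, adjusted p from 0.0912 to 0.255). Without control 1, Esrra was called higher in GIF/ATP4B-DTR (0.65, adjusted p = 0.0161), and without control 2 its value in GIF-DTR became −0.094, adjusted p = 0.744.

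Ppargc1a (ENSMUSG00000029167.13, chromosome 5, 51454250 to 51567726), the coactivator, had 24.4 and 25.4 CPM in controls 1 and 2, 64.8, 46.9 and 67.97 in ATP4B-DTR 1 to 3, 36.4, 46.6 and 73.7 in GIF-DTR 1 to 3, and 33.9, 57.9 and 55.5 in GIF/ATP4B-DTR 1 to 3. Both controls lay below all 9 samples of the lines, which overlapped one another. Ppargc1a was called higher in each line, with log2 fold changes of 1.27 ± 0.32, 1.07 ± 0.31 and 0.98 ± 0.31 (edgeR adjusted p = 0.0173, 0.041 and 0.0331). The direction was the same under every alternative run, but the calls were lost in ATP4B-DTR without control 1, control 2 or ATP4B-DTR 1 (1.19 to 1.29, adjusted p from 0.0541 to 0.0914), in GIF-DTR without control 1, control 2, ATP4B-DTR 1, ATP4B-DTR 3, GIF-DTR 2, GIF-DTR 3 or GIF/ATP4B-DTR 3 (0.73 to 1.14, adjusted p from 0.0512 to 0.16) and in GIF/ATP4B-DTR without control 1, control 2, ATP4B-DTR 1, GIF/ATP4B-DTR 2 or GIF/ATP4B-DTR 3 (0.85 to 1.00, adjusted p from 0.0532 to 0.13).

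**Figure D4:**
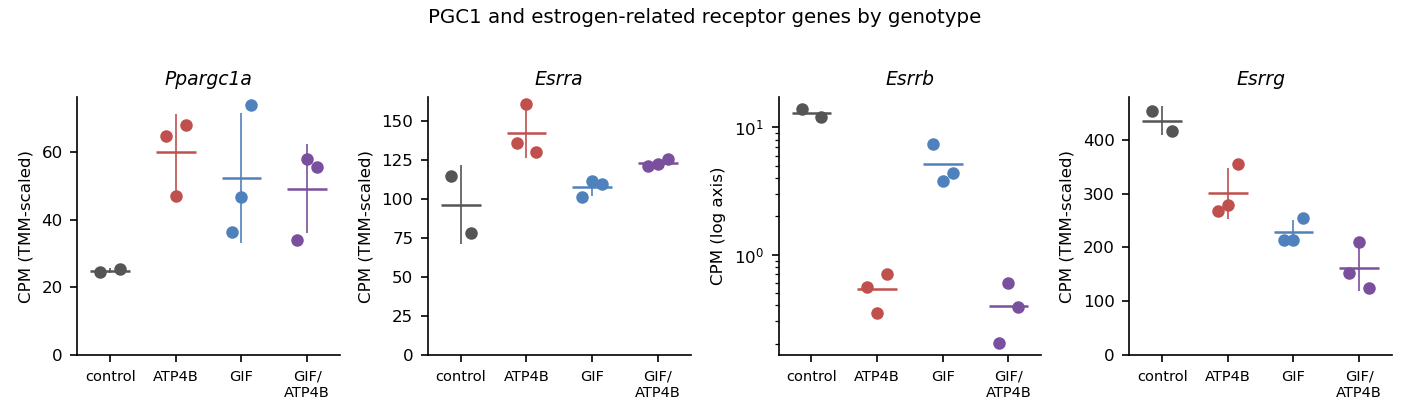
TMM-scaled CPM (y axis) of Ppargc1a, Esrra, Esrrb and Esrrg in the 11 samples by genotype (x axis), with each point a sample, lines the group mean and bars the SD, and a log axis without bars for Esrrb. Esrrb is under 1 CPM in every ATP4B-DTR and GIF/ATP4B-DTR sample, while Ppargc1a is above both controls in all 9 samples of the lines.

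The balance between the ERR transcripts differed between control and lines. Of their summed CPM per kb, Esrrg made up 61.2% and 67.5% in controls 1 and 2, and Esrra 36.4% and 30.0%. Esrrg made up 45.5%, 42.2% and 53.4% in ATP4B-DTR 1 to 3, 46.4%, 44.3% and 49.1% in GIF-DTR 1 to 3, and 34.7%, 42.1% and 29.5% in GIF/ATP4B-DTR 1 to 3. The Esrra share was the larger one in 8 of the 9 samples of the lines, ATP4B-DTR 3 being the exception. Esrrb held 2.41% in control on average, and 0.107%, 1.36% and 0.109% in the 3 lines. These shares are a description of transcript levels and carry no test.

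Differences between the lines were few. Between GIF-DTR and ATP4B-DTR 1 member was called, where 0.49% of all genes were (0.403% higher and 0.0873% lower), and it was Esrrb, which GIF-DTR held at the higher level (log2 fold change of 3.25 ± 0.42, edgeR adjusted p = 0.00688). The Esrrb call was lost without ATP4B-DTR 1 or ATP4B-DTR 2 (3.02 to 3.28, edgeR adjusted p from 0.0513 to 0.053). Without ATP4B-DTR 3, 1 member was called higher and 1 lower, where 0.437% and 0.505% of all genes were. Between GIF/ATP4B-DTR and GIF-DTR 3 members were called, all lower in GIF/ATP4B-DTR, where 2.53% of all genes were called and 2.19% were called lower. They were Esrrb (−3.69 ± 0.43, adjusted p = 0.000946), Acsl1 (−1.07 ± 0.13, adjusted p = 0.000946) and Echs1 (−0.68 ± 0.12, adjusted p = 0.0145, edgeR). The Echs1 call was lost without GIF-DTR 1, GIF-DTR 3, GIF/ATP4B-DTR 1 or GIF/ATP4B-DTR 3 (−0.70 to −0.58, adjusted p from 0.0513 to 0.0794). With Y-linked expression as a covariate, 0 members were called in either comparison. Within the samples that lack it, GIF-DTR and ATP4B-DTR differed in Esrrb by 3.26, adjusted p = 0.105 (edgeR), and no such fit exists for GIF/ATP4B-DTR and GIF-DTR, which share no Y status. Both comparisons also go with the parietal markers. GIF-DTR was called above ATP4B-DTR in 2 of 12, beside 0.403% of all genes. GIF/ATP4B-DTR was called below GIF-DTR in 4 of 12, beside 2.19%. Markers that were not called could differ too, such as Atp4a, with means of 5227 CPM in GIF-DTR and 2614 in ATP4B-DTR. Their part in these results was not tested.

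Between GIF/ATP4B-DTR and ATP4B-DTR, 0 members were called by edgeR, where 0% of all genes were. An unadjusted p under 0.05 was found for 4 of the 39 members and for 1554 of all 14889 genes. The DESeq2 Wald test called 3 members, all lower, where it called 1.43% of all genes lower and 0.468% higher. The smallest adjusted p belonged to Acsl1 (−0.91 ± 0.13, edgeR adjusted p = 0.0598), whose samples did not overlap between the 2 lines. Esrrg was next among the regulators (−0.89 ± 0.19, edgeR adjusted p = 0.129), also without overlap. Without ATP4B-DTR 1, 1 member was called lower, where 0.0539% of all genes were. Without ATP4B-DTR 3 or GIF/ATP4B-DTR 2, 2 were called lower, beside 0.202% and 0.276% of all genes. The samples did not overlap for 14 members between GIF-DTR and ATP4B-DTR, 13 between GIF/ATP4B-DTR and ATP4B-DTR, and 8 between GIF/ATP4B-DTR and GIF-DTR (35.9%, 33.3% and 20.5%), beside 16.9%, 15.1% and 26.4% of all genes.

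Beyond the 39 members, 68 other genes of these pathways were counted. Of the 68, 18, 16 and 24 (26.5%, 23.5% and 35.3%) were called lower in the 3 lines, beside 9.39%, 6.82% and 15.4% of all genes, and 2, 1 and 4 (2.94%, 1.47% and 5.88%) were called higher, beside 12.2%, 9.97% and 18.2%. Their median log2 fold changes were −0.25, −0.22 and −0.35. Cd36, a fatty acid transporter of the plasma membrane, fell most among those called in ATP4B-DTR and GIF/ATP4B-DTR, from a mean of 197 CPM in control to 11.03, 57.9 and 6.23 CPM, with log2 fold changes of −4.15 ± 0.26, −1.77 ± 0.24 and −4.98 ± 0.27 (edgeR adjusted p = 2.43e-05, 0.00174 and 3.88e-06). Acadsb, the dehydrogenase of short branched chains, fell with log2 fold changes of −2.62 ± 0.24, −1.19 ± 0.24 and −3.55 ± 0.25. Perm1, a regulator that acts with PGC-1 and ERR factors in muscle, fell with −3.13 ± 0.35, −1.37 ± 0.33 and −3.71 ± 0.36. For Cd36, Acadsb and Perm1, GIF-DTR was also called above ATP4B-DTR, and GIF/ATP4B-DTR below GIF-DTR, as for Esrrb. The alternatives were run for the 39 members and not for these other genes.

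Other genes fell in all 3 lines without a call between lines. Ppara, the nuclear receptor that drives fatty acid oxidation genes in liver, had log2 fold changes of −1.10 ± 0.35, −1.18 ± 0.35 and −2.25 ± 0.36, and its partner Rxra had −0.78 ± 0.18, −0.74 ± 0.18 and −0.63 ± 0.18. Pdk4, the kinase that switches off pyruvate dehydrogenase when fat is burned, had −1.98 ± 0.34, −2.63 ± 0.35 and −2.55 ± 0.35. Within the TCA cycle, Sdha (succinate dehydrogenase) fell with −0.69 ± 0.13, −0.50 ± 0.13 and −0.82 ± 0.13. Crat, the carnitine acetyltransferase, fell with −0.65 ± 0.15, −0.72 ± 0.15 and −0.96 ± 0.15. Among the few increases, Crot, the peroxisomal carnitine octanoyltransferase, rose in ATP4B-DTR and GIF/ATP4B-DTR (0.81 ± 0.19 and 1.09 ± 0.19), the PGC-1-related coactivator Pprc1 rose in GIF-DTR and GIF/ATP4B-DTR (0.71 ± 0.18 and 0.67 ± 0.18), and cytosolic Idh1 rose in GIF/ATP4B-DTR (1.26 ± 0.20).

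Promoter sequence was examined for the ERR response element. RefSeq windows of 300 bases, from 250 before to 50 after each start (GRCm38.p6), were found for 35 of the 39 members, and not for Acat1, Idh3a, Acaa2 and Decr1. On both strands, TCAAGGTCA was found in 0 of the 35 and in 0.466% of all 27025 genes with a window, and TNAAGGTCA in 0 of the 35 and in 1.43% of all genes. The shorter core AAGGTCA, contained in both and searched after these gave no match, was found in 2 of 35 members (5.71%) and in 5.38% of all genes. The members held it about as often as genes at large. The matches were in Acadm and Ogdh, both called lower in all 3 lines, and they are printed here as the places where the core occurs, in the direction of the gene and with the match, which reads TGACCTT on that strand, in capitals. The Acadm stretch is chr3:153944846-153944893 (gene on the minus strand) with the match starting 249 bases before the start site, and the Ogdh stretch is chr11:6292125-6292171 (plus strand) with the match starting 5 bases before it. A match is a description of sequence and not a site of binding.
Acadm: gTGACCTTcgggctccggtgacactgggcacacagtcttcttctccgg
Ogdh: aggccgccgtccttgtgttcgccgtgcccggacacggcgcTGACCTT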

How the data were processed

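RNA was measured in 11 libraries grouped by the genotype label, and replicate numbers pair no samples. The authors deposited expected counts per gene, not normalized: 30.7% of nonzero values are fractional. The genome build was mm10, per the submitters' processing notes; the aligner, quantifier and annotation are not given in the sources used here. Libraries were poly(A)-selected and stranded, per the labels' protocols. The number of columns left unused was 0.

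The design assumed whole counts, so the counts were rounded. Genes were kept by filterByExpr, libraries scaled by TMM, and group means estimated together over the 11 samples by robust quasi-likelihood in edgeR 4.0.16 (R 4.3.3, limma 3.58.1), with Benjamini-Hochberg adjustment over 14889 genes in each of 6 comparisons and a threshold of 0.05. SE is the size of the log2 fold change divided by the square root of F. The common biological coefficient of variation was 26.6%. The 3-count floors cover counting error only. Alternatives were DESeq2 1.42.0 (Wald test, or size factors within edgeR), other filters and scalings, no robust moderation, only the groups compared, a Y-linked covariate and leaving out each sample. Scaling by library totals and fits within samples with or without Y-linked expression were chosen after seeing the data. The script was tested on simulated data.

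The members and lists were chosen with earlier results of these data known. All members may be named; values in every sample are given for regulators, for members called in at least 1 comparison and for Cpt1a, Cs, Idh3a and Ogdh. Gene lengths and coordinates came from GENCODE (GRCm38, the build of mm10) and promoters from RefSeq. A planned comparison of ERR proteins was not made.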

Additional observations from a re-analysis of the deposited data

Results flagged for a closer look

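Members whose lines differed from each other by the test of the difference itself are given here. For Esrrb, GIF-DTR exceeded ATP4B-DTR by a log2 difference of 3.25 (edgeR adjusted p = 0.00688), and GIF/ATP4B-DTR stood below GIF-DTR, at −3.69 (edgeR adjusted p = 0.000946). Acsl1 was lower in GIF/ATP4B-DTR than in GIF-DTR, at −1.07 (edgeR adjusted p = 0.000946), and Echs1 likewise, at −0.68 (edgeR adjusted p = 0.0145). With Y-linked expression as a covariate, the Esrrb values were 3.25 and −3.68, Acsl1 was −0.89 and Echs1 −0.70, with edgeR adjusted p from 0.0536 to 0.597.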

How the results depend on the processing

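No paired analysis was possible because the replicate numbers of the lines come from accession order and pair no samples. Of 48 calls of a member in a comparison, 13 held under every alternative in which they were tested, 35 were lost under at least 1, and 0 changed sign. Leaving out control 1 ended 24, library totals 22, the Y-linked covariate 21, fitting only the groups compared 14, samples with Y-linked expression alone 14 (run only where both groups have them), leaving out control 2 13 and GIF/ATP4B-DTR 3 11, and every other alternative under 10. A lone control is assumed to vary like the other groups. Depth limits Esrrb most, with as few as 5 counts.

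DESeq2's Wald test called 3 members between GIF-DTR and ATP4B-DTR, 1 higher and 2 lower, beside 1.43% and 1.14% of all genes. Between GIF/ATP4B-DTR and ATP4B-DTR it called 3, all lower, beside 1.43% of all genes. With no filter, 2 were called lower in the latter comparison, beside 0.214%. With at least 10 counts in every sample, which removes Esrrb, 0 were called between GIF-DTR and ATP4B-DTR, and the regulator medians were 0.56, 0.16 and 0.34 in the 3 lines (ATP4B-DTR first, then GIF-DTR, then GIF/ATP4B-DTR). The Y-linked covariate gave 7 calls in ATP4B-DTR, 2 in GIF-DTR (regulator median −0.55), and 0 both between GIF-DTR and ATP4B-DTR and between GIF/ATP4B-DTR and GIF-DTR. Samples with Y-linked expression alone leave 1 sample in ATP4B-DTR, assumed to vary like the other groups. They gave 4 calls in ATP4B-DTR, 1 higher and 3 lower, where 3.81% of all genes were called higher and 2.21% lower. The main fit called 12.2% and 9.39% of all genes there, so calls fell among all genes too. Samples without Y-linked expression gave 0 between GIF-DTR and ATP4B-DTR, beside 0.181% of all genes higher and 0.0279% lower. Library totals gave 7 calls in GIF-DTR, and medians in the 3 lines of 0.014, −0.067 and −0.077 (beta-oxidation), 0.28, 0.20 and 0.11 (TCA) and 0.33, −0.022 and −0.21 (regulators), while the median of all genes moved to 0.30, 0.35 and 0.28. Apart from what those fits construct (fewer genes, fewer samples, the shift of all genes), the cause was not tested.

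Leaving out each sample gave 8 to 16, 3 to 14 and 10 to 20 calls in the 3 lines, 0 to 2 between GIF-DTR and ATP4B-DTR, 0 to 2 between GIF/ATP4B-DTR and ATP4B-DTR, and 2 to 3 between GIF/ATP4B-DTR and GIF-DTR. At the highest counts in the 3 lines, 12.4%, 10.3% and 16.7% of all genes were called higher and 10%, 7.41% and 15.7% lower. The lowest counts in the 3 lines came without control 1, with shares of all genes given in the Results. Between GIF/ATP4B-DTR and GIF-DTR, 1% to 2.18% of all genes were called lower. Medians ranged from −0.42 to −0.17, −0.55 to −0.33 and −0.52 to −0.27 (beta-oxidation), −0.16 to 0.11, −0.30 to −0.034 and −0.37 to −0.036 (TCA), and −0.15 to 0.20, −0.55 to −0.21 and −0.69 to −0.35 (regulators), with both ends set by leaving out a control. Esrra in GIF-DTR ranged from −0.094 (without control 2, edgeR adjusted p = 0.744, the one reversal) to 0.46.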
